A study of Mus musculus with 160 samples.

Results

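A set of 10 imprinted genes with roles in fetal and placental growth were followed in single cells on the way from endothelium to blood: Mest, Igf2, Dlk1, Peg3, Plagl1, Igf2r, Grb10, Cdkn1c, Meg3 and H19. These are 10 of the 23420 rows in the table, and each of the 10 names stood on a row. They were chosen by name, with the fall of Mest between the groups and the levels of some members already known, so their levels and their co-occurrence in cells are a description. No test was run.

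The table held 160 mouse cells of strain C57BL/6, all derived from pluripotent stem cells with an inducible cassette of Runx1 and Hoxa9 in the Rosa26 locus, switched on with doxycycline. The 65 induced hemogenic endothelial cells (iHECs) were sorted as CD31+CD41lowCD45-c-kit+CD201high. The induced hematopoietic progenitor cells (iHPCs) came from later culture on OP9-DL1 stroma, feeder cells that present a Notch ligand. Of these, 21 were day-14 and 18 day-17 cells, both sorted as CD45+Lin-, while the 56 day-21 cells were sorted as Ter119-CD45+c-kit+CD127+. These days are days 3, 6 and 10 of maturation. The labels name embryonic or induced pluripotent stem cells as the source of all cells, and the paper gives the sequenced cells as products of the embryonic line. By the design, the cells of all 4 groups carry this cassette, and a wild-type hemogenic endothelium was not analysed here. No culture, animal or experiment is named for a cell in the labels. For that reason each group is 1 sample, its SD is a spread between cells, and day and sort gate cannot be told apart except between day 14 and day 17, which share a gate.

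An imprinted gene is transcribed mainly or only from the copy of a given parent, because DNA methylation set in the egg or the sperm differs between both copies and is kept through later divisions. Several such genes act on growth in opposite directions. Igf2, active on the paternal copy, encodes a growth factor, and Igf2r, active on the maternal copy in most mouse tissues, encodes the receptor that carries this factor to lysosomes for breakdown. Mest, Dlk1, Peg3 and Plagl1 are also active on the paternal copy, and H19, Meg3, Cdkn1c and, in most tissues, Grb10 on the maternal copy. The values do not tell the parental copies apart.

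The 300 bases around a start site (250 before it and 50 after) are printed for Mest and Peg3, which were high together in iHECs, and for Dlk1 and Meg3, neighbors in 1 imprinted domain with opposite levels there. Capitals mark CpG dinucleotides, the bases that carry the methylation of imprinted genes. The sequences are from RefSeq, build GRCm38.p6, the assembly that mm10 names, and of several starts the one with most CpGs is shown.
Mest (chr6:30737800-30738099, plus strand): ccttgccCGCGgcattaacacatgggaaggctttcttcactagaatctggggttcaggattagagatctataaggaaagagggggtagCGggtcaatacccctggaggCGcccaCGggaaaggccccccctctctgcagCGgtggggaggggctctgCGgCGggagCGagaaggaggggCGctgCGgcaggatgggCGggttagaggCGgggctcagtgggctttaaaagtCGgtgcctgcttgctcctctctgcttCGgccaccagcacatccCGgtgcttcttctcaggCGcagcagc
Peg3 (chr7:6730370-6730669, minus strand): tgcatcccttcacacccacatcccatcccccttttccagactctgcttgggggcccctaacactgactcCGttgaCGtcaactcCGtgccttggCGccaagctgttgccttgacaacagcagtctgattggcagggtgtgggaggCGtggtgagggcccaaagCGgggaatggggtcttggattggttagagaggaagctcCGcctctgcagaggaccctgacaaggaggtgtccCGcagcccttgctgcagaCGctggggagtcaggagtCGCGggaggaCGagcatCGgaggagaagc
Dlk1 (chr12:109452573-109452872, plus strand): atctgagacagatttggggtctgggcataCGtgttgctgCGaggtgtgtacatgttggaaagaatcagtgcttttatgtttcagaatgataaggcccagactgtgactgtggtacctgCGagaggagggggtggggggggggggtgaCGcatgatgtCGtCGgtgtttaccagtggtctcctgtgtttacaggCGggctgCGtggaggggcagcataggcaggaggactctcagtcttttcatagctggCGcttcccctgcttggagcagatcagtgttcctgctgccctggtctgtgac
Meg3 (chr12:109540746-109541045, plus strand): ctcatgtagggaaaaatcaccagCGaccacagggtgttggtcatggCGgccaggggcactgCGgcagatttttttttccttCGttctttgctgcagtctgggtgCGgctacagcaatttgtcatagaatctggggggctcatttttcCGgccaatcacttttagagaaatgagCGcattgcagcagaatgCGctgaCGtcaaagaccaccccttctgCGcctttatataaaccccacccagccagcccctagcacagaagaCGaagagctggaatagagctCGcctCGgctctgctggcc
They hold 17, 13, 9 and 13 CpGs, against a median of 7 over 32851 promoters of this length. RefSeq windows were at hand for 8 of the 10 members, with 15 start sites that held 1 to 45 CpGs (median 13), and the highest number was at a start of Grb10. Of the 15, 0 held GCCATNTT, a core recognized by YY1, on either strand, against 6.05% of all promoters. The absence of a match describes these letters only.

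Mest and H19 also carry microRNAs inside their genes. The mature sequences, with bases 2 to 8 (the seed, which pairs with targets) in capitals, are printed because Mest was the highest member in iHECs and H19 was listed at 0.
mmu-miR-335-5p: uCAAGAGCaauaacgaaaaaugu
mmu-miR-335-3p: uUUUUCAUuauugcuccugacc
mmu-miR-675-5p: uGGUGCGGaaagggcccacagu
mmu-miR-675-3p: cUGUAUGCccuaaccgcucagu
The 4 seeds differ. The hairpin of miR-335 lies in an intron of Mest on the same strand, and that of miR-675 in an exon of H19. The row named Mir335 was above 1 TPM in 13 of 65 iHECs, with a highest value of 19.9 TPM, and in 0 of the 95 iHPCs. The row named Mir675 was listed at 0 in every cell. These rows count cDNA over the hairpin and do not measure the mature microRNA.

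Values are in TPM, a unit that divides by transcript length and brings every cell to a like total. It keeps no reads, and depth is therefore unknown. The number of genes above 1 TPM per cell ranged from 3309 to 7533 in iHECs and from 3103 to 9658 in iHPCs. Commonly used genes were at times listed at 0, Tbp in 28 and Hprt in 6 of the 160 cells, so a value of 0 is given as listed. The endothelial markers Cdh5 and Kdr were each above 1 TPM in 63 of 65 iHECs, and Cdh5 was above 1 TPM in 0 of 95 iHPCs. The iHPCs were not free of endothelial transcripts. Of 10 such markers, 6 were above 1 TPM in some day-14 cell, 6 in some day-17 cell and 4 in some day-21 cell. Esam, Egfl7 and Pecam1 had day-17 means of 5.88, 6.06 and 4.77 on the log2(TPM + 1) scale. Before any result, 6 iHPCs must be named. They held over 100 TPM of Pou5f1, a pluripotency factor, or of Krt8, a keratin of simple epithelia, and this mark was set after the data were seen. At day 14, cells 4 and 17 had 972 and 698 TPM of Pou5f1 with Ptprc, which codes for CD45, listed at 0, and cell 15 had 621 TPM of Krt8. At day 17, cells 3, 9 and 15 had 226, 2306 and 1447 TPM of Krt8. No iHEC passed either mark. Member results and list counts that these 6 cells change are given with and without them, and means of other genes are over all cells.

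In all, 7 members were on in most iHECs and 3 were listed at or near 0. Mest (chr6:30723547-30748465, plus strand), which encodes a membrane enzyme with an alpha/beta hydrolase fold, passed 1 TPM in each of the 65 iHECs, a share of 100% with an exact Clopper-Pearson 95% interval of 94.5 to 100. Its lowest, median and highest values were 97.0, 4457 and 13639 TPM. By its mean of 5191 TPM it ranked 5 of the 23420 rows in iHECs. Of the iHECs, 3 lay well below the rest, cells 50, 31 and 2 with 97.0, 136 and 161 TPM, and the next higher cell had 851 TPM.

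Of the ligands, Igf2 (chr7:142650766-142666816, minus strand) had 25.3, 468 and 1795 TPM as lowest, median and highest values and passed 1 TPM in all 65 iHECs. Dlk1 (chr12:109452823-109463336, plus strand), a transmembrane relative of the Notch ligands that restrains differentiation of preadipocytes, had 0.938, 235 and 1290 TPM and was above 1 TPM in 64 of 65. Both were thus on in almost every cell, and Dlk1 spread more widely, with an SD of 2.51 on the log2(TPM + 1) scale against 1.3 for Igf2.

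Of the proteins that act against growth signals, the receptor Igf2r (chr17:12682406-12769664, minus strand) had 0, 24.8 and 185 TPM and was above 1 TPM in 63 of 65 iHECs. Grb10 (chr11:11930508-12038683, minus strand), an adaptor that binds insulin and IGF1 receptors and dampens their signal, had 0, 69.0 and 354 TPM and was above 1 TPM in 55 of 65 (84.6%, interval 73.5 to 92.4). Cdkn1c (chr7:143458339-143461050, minus strand), the cyclin-dependent kinase inhibitor p57, was listed at 0 in all 65, which allows a share of up to 4.62%. The inhibitors of growth were therefore not alike in iHECs.

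Of the zinc finger factors, Peg3 (chr7:6703892-6730431, minus strand) had 0, 75.3 and 797 TPM and passed 1 TPM in 58 of 65 (89.2%, interval 79.1 to 95.6). Plagl1 (chr10:13060504-13131694, plus strand), a factor that can halt the cell cycle, had 0, 57.9 and 648 TPM and was above 1 TPM in 53 of 65 (81.5%, interval 70.0 to 90.1). Plagl1 split the iHECs into cells that were high and cells near 0: 50 cells were above 10 TPM and 12 were at or below 1 TPM.

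Of the long noncoding RNAs, H19 (chr7:142575529-142578143, minus strand) was listed at 0 in all 160 cells, as were 31.7% of all rows. Meg3 (chr12:109541001-109571726, plus strand) passed 1 TPM in 2 of 65 iHECs (3.08%, interval 0.375 to 10.7), at most with 8.43 TPM, and in 0 of 95 iHPCs. Such intervals and limits account for counting error alone and take each column as a separate cell. How these 2 RNAs were annotated in the counting, and whether it could miss them, is not given in the sources used here.

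By mean level in iHECs, on the log2(TPM + 1) scale, the order was Mest at 11.94 ± 1.38 (SD between 65 cells), Igf2 at 8.61 ± 1.3, Dlk1 at 7.25 ± 2.51, Peg3 at 5.63 ± 2.75, Grb10 at 5.13 ± 2.45, Plagl1 at 5.03 ± 2.74 and Igf2r at 4.56 ± 1.68. The gap from Mest to Igf2 was larger than the SD of either, and each later neighbor in the order lay within the SD of the next. In a single iHEC, 5 to 8 of the 10 members were above 1 TPM: 5 in 6 cells, 6 in 20, 7 in 37 and 8 in 2.

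**Figure D1:**
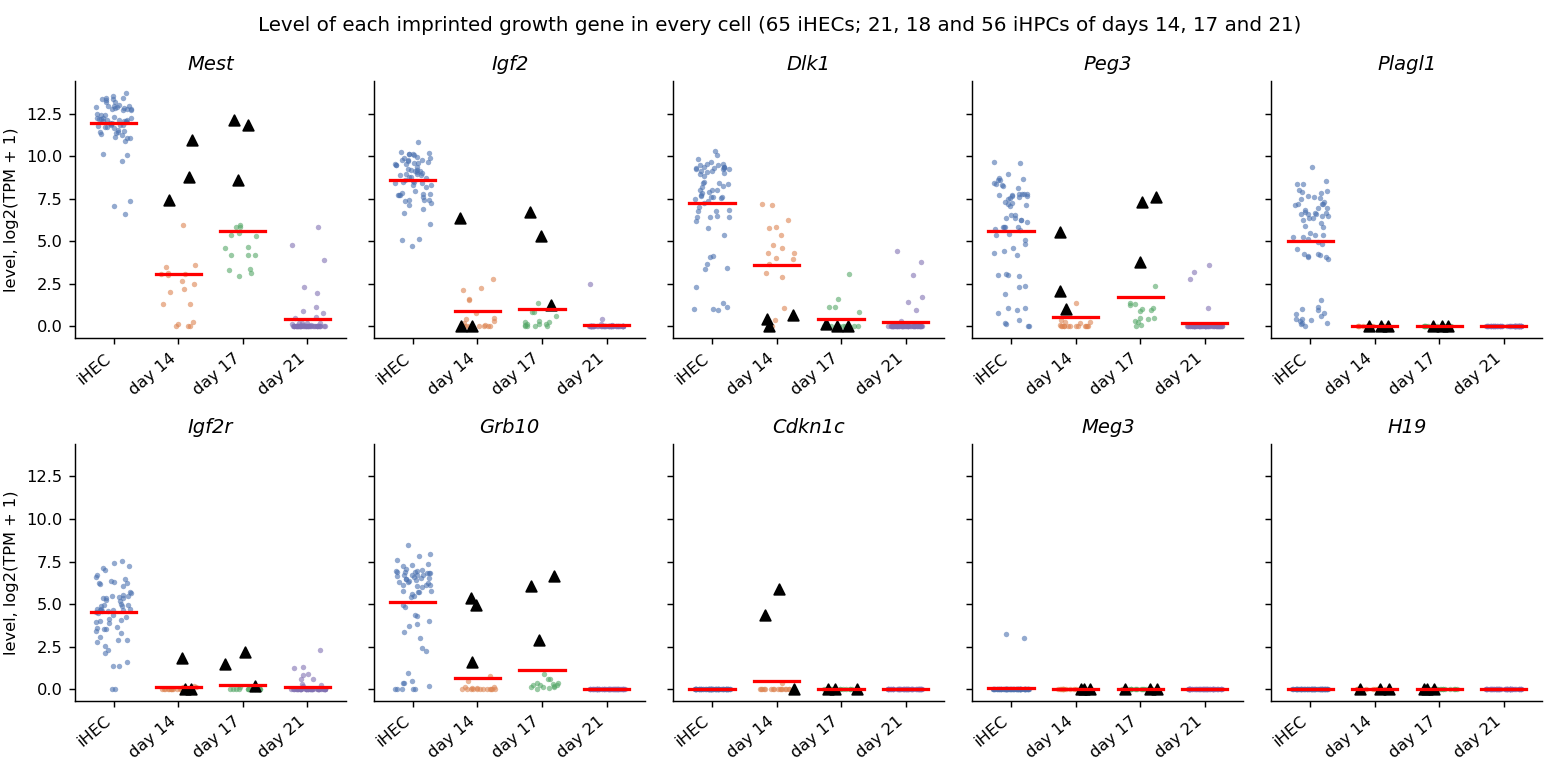
Level of each member as log2(TPM + 1) on the vertical axis in every cell of the 4 groups, with red bars for the group means and black triangles for the 6 iHPCs above 100 TPM of Pou5f1 or Krt8. All 65 iHECs lie above all 56 day-21 iHPCs for Mest and Igf2, and the triangles hold the highest day-14 and day-17 values of Mest, Peg3 and Grb10 but not of Dlk1.

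The members share domains in which imprinted genes lie next to each other, and in iHECs many neighbors of a member that was on were listed at or near 0. An iHEC had a median of 4926 of the 23420 rows above 1 TPM, so most rows were at or below 1 TPM. Nothing about imprinted domains is therefore read from the counts of low neighbors. On chromosome 7, H19 and Igf2 are 72.6 kb apart, and 65 of 65 iHECs had Igf2 above 1 TPM with H19 listed at 0. On chromosome 12, Dlk1 and Meg3 are 77.7 kb apart, and 62 iHECs had Dlk1 but not Meg3 above 1 TPM, against 2 with both. The other genes of that domain were low in iHECs too. Rian, a noncoding RNA downstream of Meg3, was above 1 TPM in 0 of 65, Mirg, a host of microRNAs, in 8, Rtl1, a retrotransposon-derived gene needed in the placenta, in 3, and Dio3, a deiodinase that inactivates thyroid hormone, in 0.

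Beside Cdkn1c, Phlda2, a brake on placental growth, and Slc22a18, a transporter gene, were each above 1 TPM in 0 of 65 iHECs, and Kcnq1ot1, the noncoding RNA that silences this domain on the paternal copy, in 13. Airn, the noncoding RNA that silences Igf2r on the paternal copy, passed 1 TPM in 27 of 65 (41.5%, interval 29.4 to 54.4), and 26 of these had Igf2r above 1 TPM too. Airn and Igf2r overlap by 28354 bases on opposite strands, and use of strand in the counting is not stated, so their reads cannot be told apart. Copg2, a coat protein gene whose last 912 bases overlap the end of Mest on the other strand, was above 1 TPM in only 6 of 65 iHECs although all had Mest. Usp29, which starts 146 bases from Peg3, was above 1 TPM in 6 of 65 iHECs, Zim1, on its other side, in 1, and Ddc, next to Grb10, in 3.

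Copg2 and Slc22a3 were seen in a larger share of iHPCs than of iHECs. Genes above 1 TPM per cell were also more in iHPCs, with medians of 8200, 8101 and 6695.5 at days 14, 17 and 21 against 4926 in iHECs. From iHEC to day 14 Copg2 rose by 1.73 and Slc22a3 by 1.54, where 48% of all genes rose by more than 1. Relative to the median difference of all genes these rises were 0.81 and 0.61. From day 17 to day 21 Slc22a3 rose by 2.22, where 2.33% of all genes rose by more than 1. Copg2 passed 1 TPM in 14 of 21 cells at day 14, in 13 of 18 at day 17 and in 26 of 56 at day 21. Slc22a3, an organic cation transporter near Igf2r, passed 1 TPM in 4 of 65 iHECs, then in 12 of 21, 11 of 18 and 49 of 56 cells from day 14 to day 21, and its group mean went from 0.30 in iHECs to 4.74 at day 21. Kcnq1ot1 passed 1 TPM in 7 of 21, then 7 of 18 and 33 of 56.

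**Figure D2:**
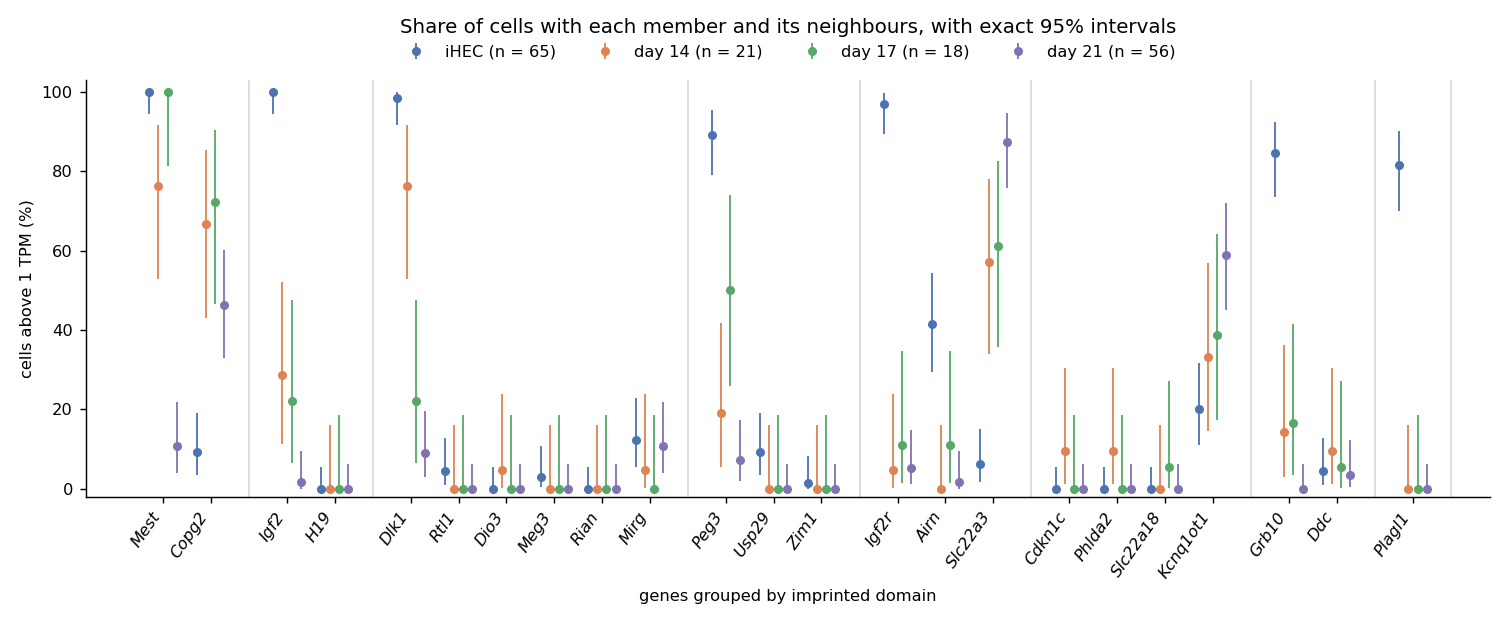
Percent of cells above 1 TPM for each member and its neighbors, by imprinted domain, with exact 95% intervals, in the 4 groups. In iHECs (blue), Igf2 and Dlk1 are near 100% beside H19 and Meg3 at 0% and 3.08%, while Copg2 and Slc22a3 are lowest in iHECs. The median number of genes above 1 TPM per cell was also lowest in iHECs.

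From iHEC to day 14 all 7 members that passed the filter (more than 30 cells over 1 TPM, which 9674 genes met) fell by more than 1 on the log2 scale. The other 3, H19, Meg3 and Cdkn1c, did not pass it. The background was 11.5% of the 9674 genes, but the 7 passed mostly through their iHEC values, so the count is no support. Markers of cell type moved at the same step. The 10 endothelial markers all fell by more than 1, with a median difference of -5.04 against -5.03 for the 7 members, and 9 of 10 blood markers rose, with a median of 5.85. Their part in the fall of the members was not tested. The median difference of all genes at this step was 0.93. Mest went from 11.94 to 3.09 ± 2.96 (SD, 21 cells), a difference of -8.85, or -9.78 relative to that median. Igf2 fell by 7.70 on the log2 scale, Peg3 by 5.09, Plagl1 by 5.03, Grb10 by 4.49, Igf2r by 4.45 and Dlk1 by 3.63. These sizes depend on the pseudocount, and so does their order: with 10 TPM the differences were -1.88 for Igf2r, -2.30 for Grb10, -2.52 for Plagl1 and -2.76 for Dlk1, and with 0.1 TPM they were -7.31, -6.62, -7.98 and -4.17. Without the 6 cells all 7 still fell, against a background of 11%, and the differences ranged from -3.09 for Dlk1 to -9.84 for Mest.

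The extent of the loss at day 14 differed between members. Plagl1 was listed at 0 in 21 of 21 day-14 iHPCs, and in every later cell. Igf2r was above 1 TPM in 1 of 21, Grb10 in 3, Peg3 in 4 and Igf2 in 6. Mest and Dlk1 were each above 1 TPM in 16 of 21 (76.2%, interval 52.8 to 91.8). Mest had 0, 5.39 and 1995 TPM as lowest, median and highest values, and its 3 highest cells, at 169, 438 and 1995 TPM, were 3 of the 6 cells named above. Dlk1 had 0, 15.5 and 147 TPM, and in the same 3 cells it was at 0.588, 0.336 and 0 TPM. In the other 18 cells Mest was above 1 TPM in 13 and Dlk1 in 16, with both in 12. There Peg3 was above 1 TPM in 1 of 18, Igf2 in 5, and Igf2r and Grb10 in 0.

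From day 14 to day 17, 1 of the members fell by more than 1, Dlk1, and 2 rose, Mest and Peg3, against backgrounds of 3.89% of genes falling and 15.5% rising and a median difference of 0.28. Mest rose by 2.52 to 5.61 ± 2.68 (SD, 18 cells). All 18 day-17 iHPCs were above 1 TPM of Mest, with 6.86, 31.8 and 4421 TPM as lowest, median and highest values. Mest therefore did not go down group by group. Without the 6 cells its rise was 2.46, from 2.1 ± 1.63 (18 cells) to 4.56 ± 1.04 (15 cells), with day-17 values of 6.86 to 62 TPM. The mean of Mest thus rose among the other iHPCs as well, where Krt8 also rose, by 1.46. Of the 10 endothelial markers, 1 rose by more than 1 there, Esam, by 1.87, and 1 fell. The part of these transcripts in the rise of Mest was not tested. Without the 6 cells the backgrounds were 6.15% falling and 13% rising.

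Peg3 rose by 1.19, from 0.54 to 1.73 ± 2.27, but by 0.68 without the 6 cells, and thus no longer past 1. Dlk1 fell by 3.18 from 3.62 ± 2.36 to 0.44 ± 0.83, and it fell by 3.64 without the 6 cells. In all, 4 of 18 day-17 cells passed 1 TPM of Dlk1, with 0, 0 and 7.33 TPM as lowest, median and highest values. Day 14 and day 17 overlapped, yet 13 of 21 day-14 iHPCs and 0 of 18 day-17 iHPCs were above 10 TPM of Dlk1. Both groups were sorted by the same gate.

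From day 17 to day 21, Mest fell by 5.19, Peg3 by 1.54 and Grb10 by 1.11, against a background of 38.5% of genes falling by more than 1 and a median difference of -0.74. Relative to that median, and without the 6 cells, 1 of the 3 stayed past 1, Mest, at -4.45 and -4.14, with backgrounds of 13.1% and 36.9%. Mast cell markers moved at the same step: of 8, 6 passed the filter and 5 rose by more than 1, and the summed level of the 8 went from a median of 64.9 TPM (0.676 to 177) at day 17 to 1624 TPM (124 to 100199) at day 21. Their part in the fall of the members was not tested. At day 21 Mest was listed at 0 in 36 of 56 iHPCs and above 1 TPM in 6 (10.7%, interval 4.03 to 21.9), and the 3 highest of these had 56.6, 27 and 13.7 TPM. Dlk1 was above 1 TPM in 5 of 56, with a highest value of 21 TPM, Peg3 in 4, Igf2r in 3 and Igf2 in 1. Plagl1, Grb10, Cdkn1c, Meg3 and H19 were listed at 0 in all 56, which allows a share of up to 5.36% for each. In 42 of the 56 cells no member was above 1 TPM.

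Only Dlk1 had a lower mean in each group than in the one before. That is 1 of the 7 members that passed the filter, against 4.63% of the 9674 genes. The last step of Dlk1, by -0.16, was within the spread between cells. Without the 6 cells Igf2 joined it, with means of 8.61, 0.70, 0.33 and 0.06, and the background was 5.24%. The later steps of Igf2, by -0.37 and -0.28, were also within the spread between cells. Its medians at days 14, 17 and 21 were 0.21, 0.10 and 0 TPM, below the detection limit of 1 TPM. Mest and Igf2 were the members for which every iHEC lay above every day-21 iHPC. The lowest iHEC had 97.0 TPM of Mest and 25.3 TPM of Igf2, and the highest day-21 iHPC 56.6 and 4.59 TPM. This held for 0.176% of the 9674 genes, and since the fall of Mest was known when the genes were chosen, nothing is read from it.

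**Figure D3:**
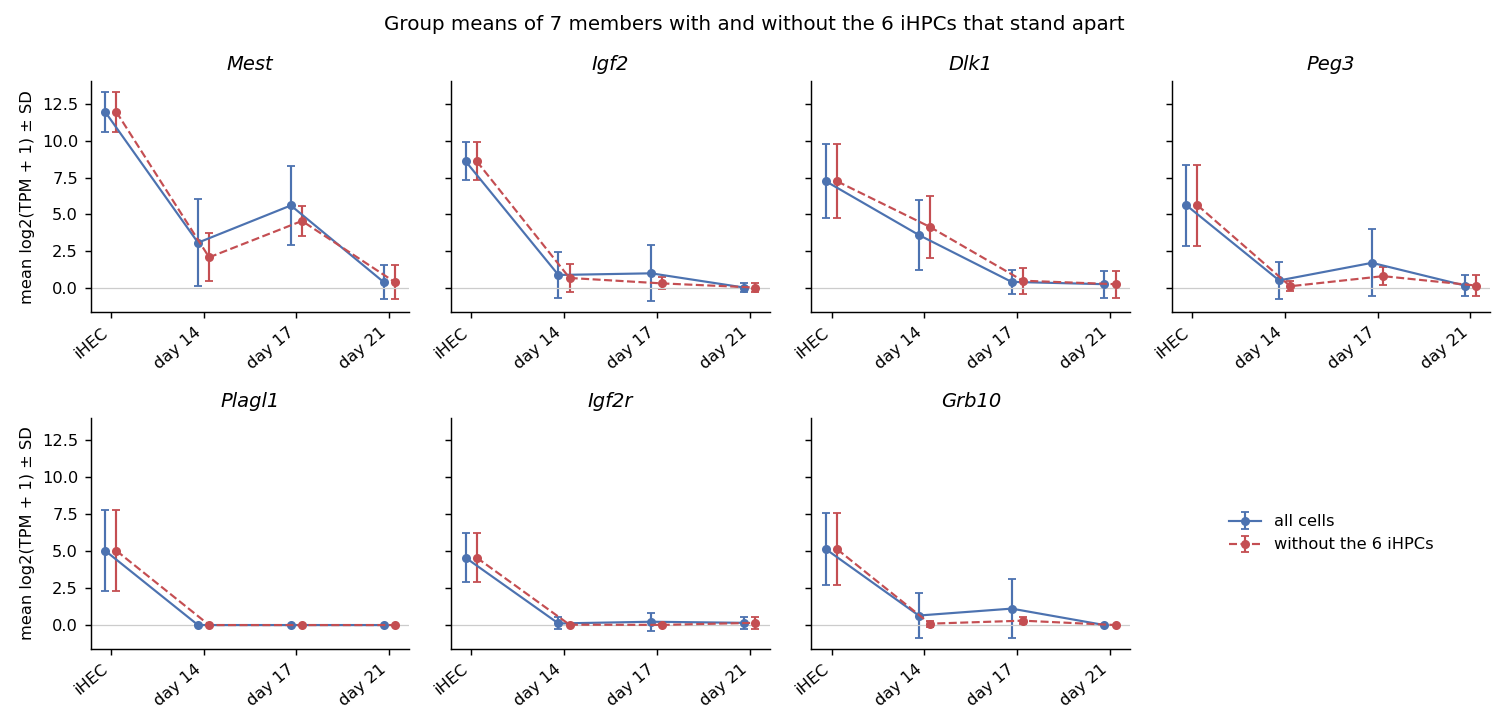
Mean of log2(TPM + 1) with SD between cells for 7 members in the 4 groups, with all cells (blue, solid) and without the 6 iHPCs (red, dashed). Mest is higher at day 17 than at day 14 in both, at 5.61 against 3.09 and 4.56 against 2.1, while the day-17 means of Igf2, Peg3 and Grb10 drop when the 6 cells are left out.

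The 6 cells held most of the signal of 5 members at day 14 and day 17. Of the summed TPM of Mest, 95.2% at day 14 and 95.2% at day 17 were in the 3 cells of that day. For Peg3 the shares were 95.1% and 96.2%, for Grb10 98.0% and 97.9%, for Igf2r 89.3% and 97.4% and for Igf2 81.1% and 96.8%. For Dlk1 they were 0.140% and 0.7%. Some of these shares rest on 1 cell or on low values. Of the 3 day-14 cells, only cell 17 had Igf2r above 0, at 2.62 TPM, and only cell 15 had Igf2 above 0, at 81.2 TPM. The highest Igf2r value of the 3 day-17 cells was 3.52 TPM. Day-17 cells 9 and 15 had 4421 and 3683 TPM of Mest, 195 and 158 TPM of Peg3, 97.8 and 64.8 TPM of Grb10 and 105 and 38.2 TPM of Igf2. Their Mest was within the range of iHECs, whereas Plagl1 was listed at 0 in both and Dlk1 was at 0.0884 and 0 TPM.

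Cdkn1c was seen above 1 TPM in 2 cells, day-14 cells 4 and 17, at 57.6 and 19.8 TPM. These are the cells with Pou5f1, and also the only cells with Phlda2 above 1 TPM, at 197 and 24.5 TPM. In the remaining iHPCs of day 14 and day 17, 0 of 18 and 0 of 15 were above 1 TPM of Igf2r, of Grb10 and of Cdkn1c.

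Krt8 moved with Mest among day-14 and day-17 iHPCs. The Spearman correlation between both was 0.82 over 21 day-14 cells and 0.81 over 18 day-17 cells, and 0.71 and 0.66 without the 6 cells. It is given as a description over cells that share a scaling and may share a culture. With Dlk1, the correlation was 0.11 and -0.26, and 0.63 and -0.29 without them. At day 17 the summed TPM of Mest was 3.91 times that of Krt8 in the 15 other cells and 2.13 times in the 3 cells above 100 TPM of Krt8. For Peg3 these ratios were 0.13 and 0.092, for Igf2 0.0431 and 0.0363, for Grb10 0.0336 and 0.0425 and for Igf2r 0.00131 and 0.00137. For Dlk1 they were 0.114 and 2.22e-05. At day 14, in the 18 other cells and the 3 marked cells, the ratios were 2.97 and 3.92 for Mest and 0.0575 and 0.0749 for Peg3. They were 0.426 and 0.123 for Igf2, 0.0323 and 0.107 for Grb10, and 0.00707 and 0.00395 for Igf2r. For Dlk1 the day-14 ratios were 14.8 and 0.00139. Of the 8 markers of trophoblast or yolk sac endoderm, Krt8, Krt18, Gata6 and Afp were above 1 TPM in some day-14 or day-17 iHPC, and Apoa1, Ttr, Elf5 and Cdx2 were in none of the 160 cells. The summed level of the 8 ranged from 5.98 to 1096 TPM at day 14, from 3.11 to 4503 TPM at day 17, from 0 to 69.9 TPM at day 21 and from 0 to 91.9 TPM in iHECs. Of the 6 pluripotency markers all were above 1 TPM in some day-14 iHPC, with summed levels of 0 to 8665 TPM, and 2 at day 17, with 0 to 12.2 TPM. The part of these cells or transcripts in the levels of the members was not tested.

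**Figure D4:**
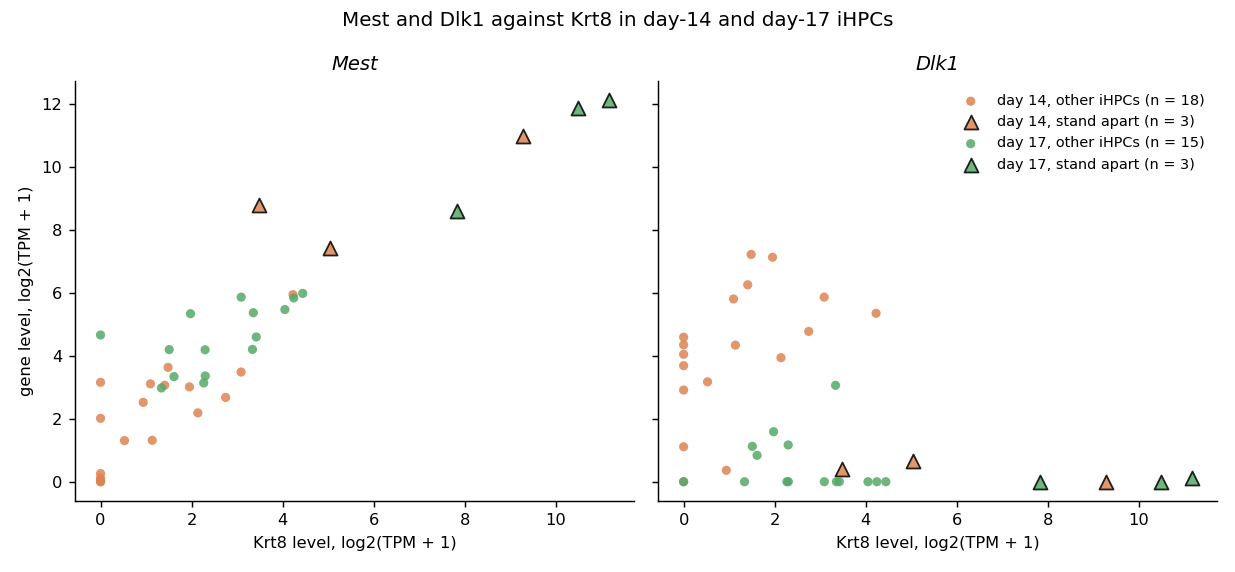
Level of Mest (left) and Dlk1 (right) against the level of Krt8, all as log2(TPM + 1), in the day-14 (orange) and day-17 (green) iHPCs, with outlined triangles for the 6 cells that stand apart. Mest goes up along Krt8 (Spearman correlations of 0.82 and 0.81), while the cells with most Krt8 have Dlk1 at or near 0.

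Within iHECs, over the 7 members that passed the filter and their 21 pairs, the median Spearman correlation across the 65 iHECs was 0.21, from -0.22 to 0.51, with 14 of 21 pairs above 0. The cells share a sort and TPM scaling, may share a culture, and some were nearly alike. Genes are not independent either, so these are descriptions with no p. Mest correlated with Dlk1 at 0.51, with Peg3 at 0.49, with Igf2 at 0.48 and with Plagl1 at 0.32. Among 7837 genes the median correlation with Mest was 0.02 and the 95th percentile 0.29, and Dlk1, Peg3 and Igf2 ranked 13, 20 and 21. By Pearson's r of log2(TPM + 1) the order changed, with Mest at 0.54 to Igf2, 0.44 to Peg3, 0.40 to Plagl1 and 0.30 to Dlk1.

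Igf2 was tied to another pair. Its correlation with Plagl1 was 0.49 and with its receptor Igf2r 0.43, and from the side of those genes Igf2 ranked 2 and 6 of 7837. Plagl1 with Igf2r was 0.36. Grb10 stood apart from them, with -0.16 to Mest, -0.22 to Dlk1 and -0.01 to Igf2, and without it the median of the remaining 15 pairs was 0.33. The iHEC with most Grb10, cell 2 at 354 TPM, was among the 3 with least Mest. Cells 50 and 31, also among these, had 0 and 0.375 TPM of Grb10. By Pearson's r Mest with Grb10 was 0.05, so the sign depended on the measure.

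The genes most like Mest across iHECs were Rhoj (0.62), an endothelial small GTPase, Maged1 (0.61), Flt1 (0.61), a VEGF receptor, Esam (0.59), an endothelial adhesion protein, and S1pr1 (0.59), a receptor for sphingosine-1-phosphate. The mean of 10 endothelial markers correlated with Mest at 0.53, with Igf2 at 0.49 and with Peg3 at 0.47, but with Dlk1 at 0.17 and with Grb10 at -0.07. With that mean held constant, an alternative added after the data were seen, Mest with Dlk1 was 0.50, with Peg3 0.32 and with Igf2 0.31. Over all 160 cells, where the difference between groups dominates, the 5 genes most like Mest were Sparc (0.90), Peg3 (0.87), Kdr (0.87), Igf2 (0.86) and Fn1 (0.86). H19 has no such list, since all its values were 0.

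**Figure D5:**
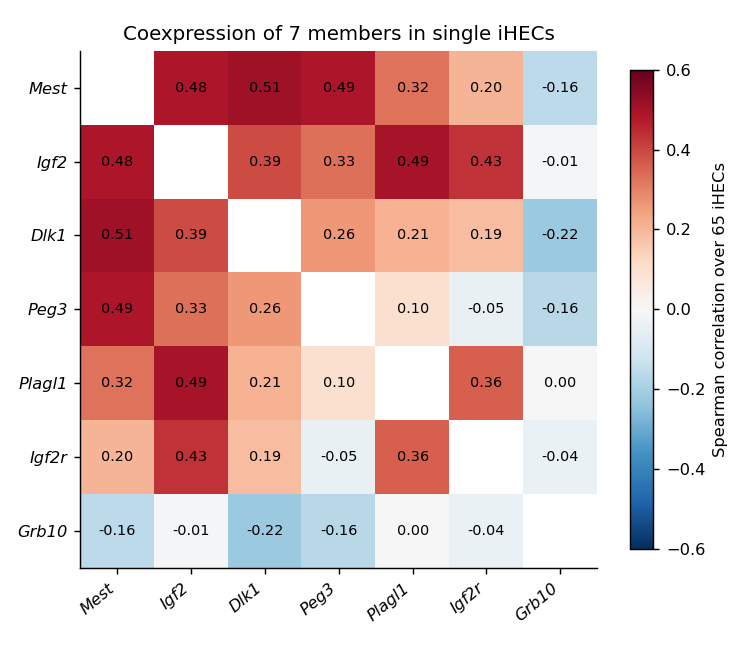
Spearman correlation between 7 members across the 65 iHECs, with red for positive and blue for negative values. The pairs among Mest, Igf2 and Dlk1 lie from 0.39 to 0.51, and the row of Grb10 is at or below 0.00.

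Other imprinted genes did not share a single course. Of 49 listed, 24 passed the filter, and from iHEC to day 14, 8 of these fell by more than 1 and 5 rose, against 11.5% and 48% of all genes, with a median difference of 0.05 against 0.93 over all genes. Then 3 fell and 2 rose to day 17, against 3.89% and 15.5% of all genes, and 5 fell and 2 rose to day 21, against 38.5% and 2.33%. Without the 6 cells, 9 fell and 6 rose, 3 fell and 1 rose, and 4 fell and 2 rose, where 50.4% of all genes rose at the first step and 2.55% at the last. Sgce, a sarcoglycan gene, had means of 7.23 in iHECs and 0.44, 0.76 and 0.83 at days 14, 17 and 21. Cd81, a tetraspanin gene of the domain that holds Cdkn1c, went from 11.53 to 7.73, 5.16 and 5.11. Gnas, a G protein subunit gene, passed 1 TPM in all 160 cells. Snrpn, a splicing gene, Nap1l4, a histone chaperone gene, Commd1, Mcts2 and Tssc4 had means of at least 3.59 in every group.

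Of 19 IGF pathway genes in the table, 11 passed the filter, and 4 fell and 2 rose from iHEC to day 14, 2 fell and 1 rose to day 17, and 3 fell and 0 rose to day 21. Over all genes the shares were 11.5% and 48%, 3.89% and 15.5%, and 38.5% and 2.33%. Without the 6 cells, 5 fell and 3 rose at the first step and the later counts were equal to these. Igfbp3, a secreted binding protein for IGFs, went from 6.66 to 0.21, 0.08 and 0.01. Igf1, the other ligand of the IGF1 receptor and named after its values were seen, went from 4.20 to 0.09, 0 and 0. Its iHEC mean was below the 8.61 of Igf2, and both ligand genes had lower means in every later group than in iHECs. Igfbp4 had means of 7.39, 8.25, 8.02 and 6.71. Of the RNA-binding proteins named for Igf2 mRNA, Igf2bp2 went from 5.44 to 4.45, 2.55 and 1.89, while Igf2bp1 and Igf2bp3 had day-14 means of 5.17 and 5.70 against 4.19 and 5.19 in iHECs. Grb2, an adaptor that activates Ras, rose by 2.56 to day 14, which is 1.63 more than the median difference.

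Of the 6 other CDK inhibitors, 3 passed the filter. Cdkn1a, which encodes p21, had means of 9.60, 7.25, 6.92 and 6.51, and passed 1 TPM in all 65 iHECs, in which Cdkn1c was listed at 0. Cdkn1b, p27, named after its values were seen, went from 4.32 to 1.26, 2.30 and 2.03. Cdkn2d went from 4.28 to 4.95, 6.04 and 5.34. From iHEC to day 14, 2 of the 3 fell by more than 1 (11.5% of all genes), and to day 17, 2 rose (15.5%), but 0 rose to day 17 without the 6 cells, where Cdkn2d instead passed 1 by day 14.

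Of 9 regulators of imprints or of Igf2 and H19, 7 passed the filter, and 5 rose and 2 fell from iHEC to day 14, 1 rose and 1 fell to day 17, and 3 fell to day 21. Over all genes 48% rose and 11.5% fell at the first step, 15.5% and 3.89% at the second, and 38.5% fell at the last. Without the 6 cells, 1 fell at the first step, and 1 rose at the last. Uhrf1, which brings the methyltransferase to newly made DNA, had means of 2.02, 6.98, 8.04 and 5.8, Dnmt1, that methyltransferase, 1.56, 5.29, 6.29 and 4.73, and Trim28, a corepressor that guards imprints, 5.16, 8.22, 8.61 and 7.27. The 8 proliferation markers rose by more than 1 as well, 8 of 8 from iHEC to day 14, and their part in this was not tested. Zfp57, the zinc finger protein that brings Trim28 to methylated imprints, went the other way, with 60 of 65 iHECs past 1 TPM but 3 of 21, 3 of 18 and 3 of 56 cells later. It was named after its values were seen. Ctcf, the insulator protein between Igf2 and H19, had means of 2.73, 4.82, 5.21 and 4.56, and Hmga2, a chromatin protein that raises Igf2bp2, 5.41, 4.24, 1.8 and 2.37.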

How the data were processed

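RNA of single sorted cells was measured. According to the labels and the study's methods, cDNA was amplified with the Discover-sc WTA Kit V2 and the library kit was TruePrep V2. The submitters' processing notes name bcl2fastq, HISAT2 2.1.0, SAMtools 0.1.19, StringTie 1.3.4 and the build mm10. The authors deposited TPM values, 1 column per cell. TPM sums to between 988686 and 999108 per cell and keeps no counts, so no count test applied and precision cannot be had from depth. Amplified copies may count as separate reads. The annotation and the use of strand are not given in the sources used here.

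Values were analyzed as log2(TPM + 1). A gene was detected above 1 TPM, and the 9674 genes detected in more than 30 of 160 cells formed the background. Each group is 1 sample, so differences of group means past 1 on the log2 scale were counted without a test. Shares carry exact Clopper-Pearson 95% intervals, and for 0 cells a limit of 3 cells. Correlations in iHECs used genes above 1 TPM in more than 13 of them. No cell was left out, and no 2 columns were identical. Some iHECs with adjacent numbers were nearly alike in many genes: cells 5 and 6, 15 and 16, 24 and 25, and 32 and 33. Cells 24 and 25 had 6699 and 6921 TPM of Mest and 145 and 143 TPM of Plagl1, but 345 and 555 TPM of Dlk1. Whether such pairs are repeats of 1 cell was not tested, and each column was counted as 1 cell. Cells were sorted singly, and doublets were not called.

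The members and lists were chosen with earlier results of these data known. All 10 members are named. Of 4 pathway lists the text gives counts and names genes with a group mean of at least 5 in any group and the members' domain neighbors (a row of Igf2os was not found), plus the 5 genes most like Mest. Other genes are said to be named after their values were seen, or serve to check cells. The 6 iHPCs were marked after the data were seen. Positions are from GENCODE vM21 and sequences from RefSeq, both on GRCm38. Steps were tested on simulated data. Python 3.11.15, pandas 2.3.3, numpy 2.4.6, scipy 1.17.1 and matplotlib 3.10.9 were used.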

Additional observations from a re-analysis of the deposited data

How the results depend on the processing

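The fall of 7 members from iHEC to day 14 was counted as 7 or 8 under every alternative, and that of 1 member (Dlk1) from day 14 to day 17 as 1. The count of 8 came only relative to the median difference and added Meg3, at -1.02. Meg3 did not pass the filter, and its own change was -0.0963. The count from day 17 to day 21, 3 with all cells, was 1 with a pseudocount of 10 TPM, with medians over cells, relative to the median difference and without the 6 iHPCs, and 4 with a pseudocount of 0.1 TPM. The number of members with a lower mean at every step, 1 with all cells, was 0 with medians over cells, where Dlk1 was at 0 in both last groups, and 2 without the 6 iHPCs. The median correlation between members in iHECs lay between 0.15 (Pearson) and 0.28 (both genes above 1 TPM). Alternatives with another detection limit moved some shares, that of day-17 iHPCs with Mest from 100% above 1 TPM to 77.8% above 10 TPM.

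Each group is a single sample, so nothing here has a replicate check, and the lack of counts leaves detection limits per cell unknown. No paired analysis was possible because the numbers in the labels only name cells and each group is 1 sample. No sample was left out in turn for the same reason.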
